A study of Homo sapiens with 12 samples.

Results

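The genes described here, near-silent or low in wild-type HepG2 cells and expressed in ARID1B-knockout cells, are AQP9, MEGF6, COL26A1, MYRIP, NRCAM, EMX1, RAB31, CYBRD1, ALDH8A1 and NEGR1. They were chosen by name for that difference, so it is given as a description with no test. They are 10 of the 35810 genes with summed counts, and all 10 were among the 12821 genes that passed the filter on low counts. Since the knockout libraries alone could carry a gene past that filter, passing it is no support for the difference.

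HepG2 is a human line from a liver tumour that keeps many functions of hepatocytes. The study sequenced polyadenylated RNA of wild-type cells (WT) and of cells with ARID1B targeted by CRISPR/Cas9 (ARID1B-KO). Each was given sorafenib at 5 µM for 48 h or the DMSO vehicle. There were 3 libraries a group in 4 groups, stated to be biological replicates. ARID1B belongs to the BAF complexes, which remodel chromatin, and sorafenib inhibits RAF and growth factor receptor kinases. The number of knockout clones is not stated in the labels, so a difference between genotypes cannot be told apart from a difference between clones. Libraries held 19739582 to 29398257 estimated counts. ARID1B mRNA fell by 1.19 ± 0.11 (SE) on the log2 scale with DMSO, from a mean of 62.4 to 27.3 CPM (the count relative to the TMM library size, in edgeR's usual unit), and all 6 knockout libraries were below all 6 WT libraries (edgeR quasi-likelihood test, adjusted p = 7.436e-06). All 14 hepatocyte markers exceeded 1 TPM (the deposited length-scaled abundance) on average in each group. Their summed level was 79280 to 87350 TPM in the WT DMSO libraries and 100500 to 116600 TPM in the knockout DMSO libraries, and with sorafenib 106300 to 108000 TPM and 135100 to 177700 TPM. The sum was led by ALB, at a mean of 32200 TPM in WT and 56010 TPM in the knockout with DMSO. Of the 14 with DMSO, ALB and FOXA2 were higher and 2 were lower, TTR (-0.77 ± 0.12) and the fibrinogen chain FGB, from 773.4 to 49.9 CPM (-3.95 ± 0.21). Over all genes tested, 14.3% were higher and 13.5% lower.

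The members do not form a single pathway. BAF complexes move nucleosomes and so set which promoters and enhancers are open to transcription factors. Among the products, AQP9 is the main glycerol channel of hepatocytes, ALDH8A1 oxidises an intermediate of tryptophan breakdown in liver, and CYBRD1 is a ferric reductase best known from the duodenum. RAB31 and MYRIP act in vesicle traffic. NRCAM and NEGR1 are cell adhesion molecules best known from neurons, MEGF6 and COL26A1 are extracellular proteins, and EMX1 is a homeobox transcription factor of the developing forebrain.

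Sequences before the annotated starts are shown for 3 members because their leading transcripts differ in the kind of start they use. All come from the RefSeq promoter table on GRCh38.p14 and end just before the first annotated exon base there. Capitals mark matches, on either strand, to the GC box GGGCGG, the CCAAT box CCAAT, the TEAD-type site GGAATG or the E-box CACGTG. The first stretch lies at chr3:40099793-40100010 on the plus strand, inside MYRIP and before the start of its leading transcript. The second lies at chr3:39809359-39809608 on the plus strand, before the start of the annotated canonical MYRIP transcript. The RAB31 stretch is chr18:9708051-9708274 on the plus strand, and the ALDH8A1 stretch is chr6:134950116-134950351 on the minus strand.
MYRIP internal: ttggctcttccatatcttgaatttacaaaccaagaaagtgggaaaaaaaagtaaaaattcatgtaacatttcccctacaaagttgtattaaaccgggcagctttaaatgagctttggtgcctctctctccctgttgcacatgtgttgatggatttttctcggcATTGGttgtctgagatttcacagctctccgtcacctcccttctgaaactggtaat
MYRIP distal: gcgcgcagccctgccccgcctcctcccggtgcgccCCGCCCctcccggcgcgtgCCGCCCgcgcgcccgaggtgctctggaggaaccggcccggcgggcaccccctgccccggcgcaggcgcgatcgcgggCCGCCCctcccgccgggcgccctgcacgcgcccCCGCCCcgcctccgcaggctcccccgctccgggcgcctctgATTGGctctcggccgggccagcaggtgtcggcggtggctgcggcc
RAB31: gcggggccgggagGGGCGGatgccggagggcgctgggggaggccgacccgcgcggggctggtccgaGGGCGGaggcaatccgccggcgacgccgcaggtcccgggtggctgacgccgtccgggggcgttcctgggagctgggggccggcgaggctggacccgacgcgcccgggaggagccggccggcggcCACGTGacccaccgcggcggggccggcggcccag
ALDH8A1: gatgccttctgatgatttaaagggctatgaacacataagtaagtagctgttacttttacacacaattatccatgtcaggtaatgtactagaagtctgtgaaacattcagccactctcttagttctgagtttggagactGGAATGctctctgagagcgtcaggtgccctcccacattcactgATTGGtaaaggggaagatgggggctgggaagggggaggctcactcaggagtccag

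These stretches differ in base composition. Over windows of 300 bases, 250 before to 50 after the start, the internal MYRIP start held 42.3% G+C with a CpG observed-to-expected ratio of 0.30, whereas the distal MYRIP start held 84.0% G+C with a ratio of 0.89. RAB31 was at the GC-rich end, with 82.7% G+C and a ratio of 1.07, and ALDH8A1 held 46.7% G+C with a ratio of 0.13. The RefSeq table matched 8 of the 10 members, with the internal start standing for MYRIP. The ratio was under 0.6 in 4 of these 8 (AQP9 0.48, MYRIP 0.30, CYBRD1 0.59 and ALDH8A1 0.13), against 51.1% of all 35116 promoters in the table. A GC box was present in 4 of 8 (MEGF6, NRCAM, RAB31 and CYBRD1; 45.0% of all promoters), a CCAAT box in 3 (AQP9, MYRIP and ALDH8A1; 34.6%), a TEAD-type site in 3 (AQP9, CYBRD1 and ALDH8A1; 14.0%) and an E-box in RAB31 alone (7.26%). None of the 8 windows held a TATA box (TATAAA; 11.5% of all promoters), an AP-1 site (TGANTCA; 7.71%), a forkhead site (TGTTTAC; 3.42%), an HNF1 site (GTTAAT; 6.88%), a CEBP site (TTGCGC; 7.48%), an ETS core (CCGGAAGT; 4.14%) or an HNF4-type site (CAAAGTCCA; 0.384%). A match describes the letters only and is no evidence of binding.

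In all 10 members, every knockout library was above every WT library of the same treatment, a pattern shown by 11.9% of all genes tested. The fitted ratio exceeded 8 under both treatments in all 10, against 0.398% of all genes. Both figures restate how the genes were chosen. The degree of silence in WT differed among them: with limits of under 1 CPM in every WT library and over 2 CPM in every knockout library, 5 members passed (AQP9, MEGF6, COL26A1, MYRIP and CYBRD1) of 20 genes in all, 0.156% of those tested. NEGR1 was outside because 1 knockout DMSO library held 1.78 CPM. NRCAM, EMX1, RAB31 and ALDH8A1 were outside because WT libraries reached 1.55, 2.25, 1.93 and 2.26 CPM. EMX1 and RAB31 were above 1.4 CPM in all 6 WT libraries, so these genes were low in WT and not silent. The opposite pattern, under 1 CPM in every knockout library and over 2 CPM in every WT library, was held by 25 genes. With the same limits in deposited TPM the counts were 15 genes for the pattern and 12 for its opposite, so their order depends on the unit.

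**Figure D1:**
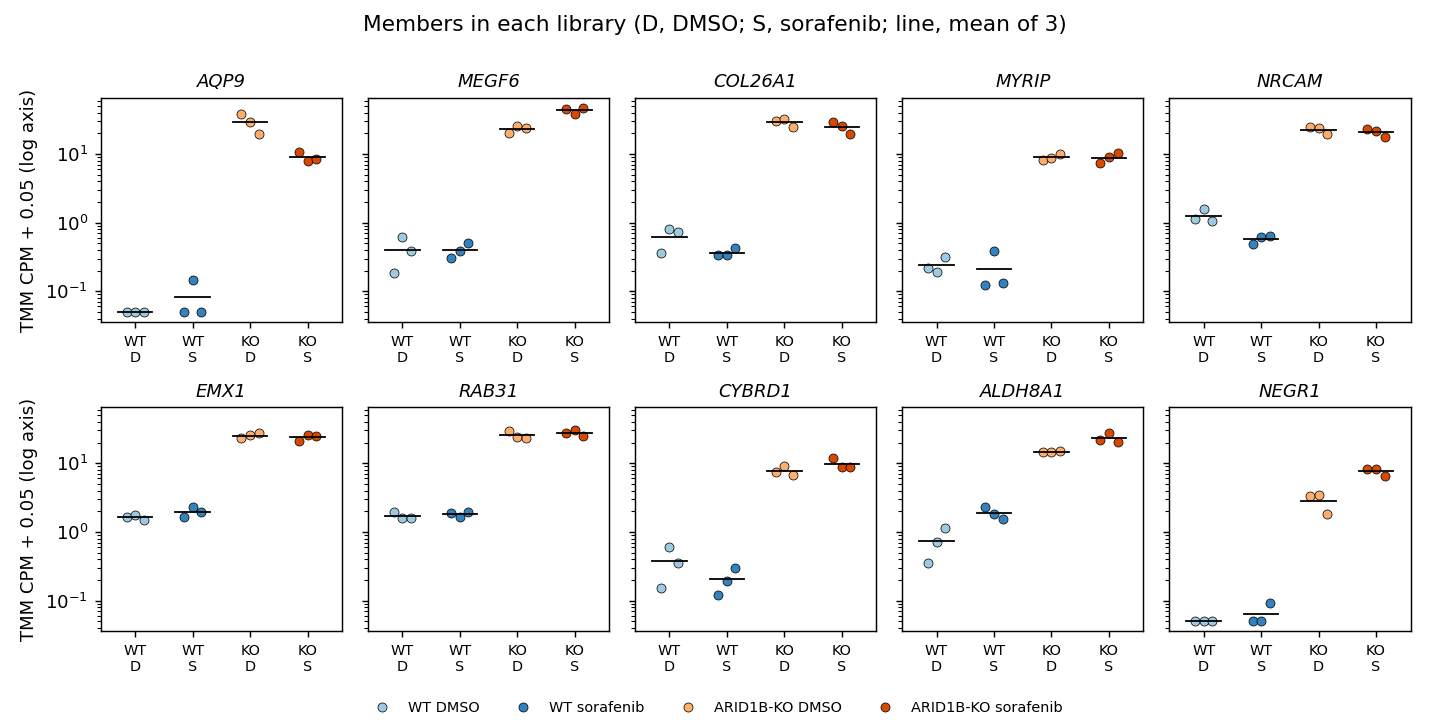
Level of each member in each of the 12 libraries, in CPM plus 0.05 on a log axis, with WT in blue and ARID1B-KO in orange, DMSO light and sorafenib dark, and a line at the mean of 3. Every knockout point lies above every WT point of its panel, and AQP9 falls from 19.7 to 37.6 CPM with DMSO to 7.84 to 10.7 CPM with sorafenib.

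Among the transport and metabolism genes, AQP9 (chr15:58138169-58185911, plus strand, GRCh38) was not detected in any of the 3 WT DMSO libraries. In WT with sorafenib it held 0, 2 and 0 counts. The knockout DMSO libraries held 37.6, 29.3 and 19.7 CPM, and the knockout sorafenib libraries 10.7, 7.84 and 8.44 CPM. The genotypes were thus far apart under both treatments, and the treatments did not overlap within the knockout. Against a floor of 3 counts over the WT group, AQP9 was at least 745-fold higher in the knockout with DMSO. With sorafenib the ratio was 328, with an exact 95% counting interval of 90.5 to 2718. The gene overlaps ALDH1A2 on the opposite strand, which held at most 12 counts in any library. Use of strand in the quantification is not given in the sources that were used.

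ALDH8A1 (chr6:134917393-134950115, minus strand) was at 0.308, 0.655 and 1.09 CPM in WT with DMSO and at 2.26, 1.77 and 1.51 CPM in WT with sorafenib. In the knockout it was at 14.5, 14.6 and 14.9 CPM with DMSO, and sorafenib libraries held 21.97, 27.4 and 20.1 CPM. The sorafenib libraries were above the DMSO libraries in both genotypes, and the fitted ratio of knockout to WT was 21.4 with DMSO and 12.4 with sorafenib. CYBRD1 (chr2:171522247-171558129, plus strand) was at 0.103, 0.562 and 0.300 CPM in WT with DMSO and at 0.0718, 0.144 and 0.251 CPM in WT with sorafenib. It reached 7.46, 8.98 and 6.68 CPM in the knockout with DMSO and 11.9, 8.81 and 8.64 CPM with sorafenib. Treatments overlapped in both genotypes, and the ratios were 24.8 and 62.1.

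Of the vesicle traffic genes, RAB31 (chr18:9708275-9862551, plus strand), a small GTPase of endosomes and the trans-Golgi, was at 1.92, 1.55 and 1.54 CPM in WT with DMSO and at 1.87, 1.58 and 1.93 CPM in WT with sorafenib. The knockout libraries held 29.4, 24.0 and 23.6 CPM with DMSO and 27.4, 30.0 and 25.1 CPM with sorafenib. Treatments overlapped, and the ratio was 15.3 under both. MYRIP (chr3:39808914-40260321, plus strand), which links RAB27A on secretory granules to myosin motors, held 2 to 7 counts in each WT library. It was at 8.08, 8.63 and 10.0 CPM in the knockout with DMSO and, under sorafenib, at 7.28, 8.90 and 10.3 CPM, with ratios of 44.8 and 55.5. The treatments overlapped here too.

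Of the adhesion genes, NRCAM (chr7:108147623-108456717, minus strand), an L1-family molecule that binds ankyrins, was at 1.10, 1.55 and 1.01 CPM in WT with DMSO and at 0.431, 0.574 and 0.586 CPM in WT with sorafenib, with no overlap. In the knockout it was at 24.4, 23.9 and 19.3 CPM with DMSO, and sorafenib libraries held 23.3, 21.3 and 17.4 CPM, with overlap. The ratio of knockout to WT was 18.6 with DMSO and 38.95 with sorafenib. NEGR1 (chr1:71395943-72282539, minus strand), a lipid-anchored protein of the IgLON family, held 0 counts in 5 WT libraries and 1 count in the sixth. It was at 3.23, 3.37 and 1.78 CPM in the knockout with DMSO and, under sorafenib, at 8.08, 8.07 and 6.47 CPM, with no overlap. NEGR1 was at least 72.3-fold higher in the knockout with DMSO, against the floor of 3 counts over the group. With sorafenib the ratio was 551, with a counting interval of 98.4 to 21800 that the single WT count leaves very wide.

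Of the extracellular proteins, MEGF6 (chr1:3487951-3611508, minus strand), a protein with many EGF-like repeats, held 4 to 12 counts in each WT library. The knockout libraries held 20.0, 25.1 and 23.8 CPM with DMSO and 44.8, 38.0 and 46.1 CPM with sorafenib. The treatments did not overlap in the knockout, and the ratios were 69.1 and 123. COL26A1 (chr7:101362875-101559024, plus strand), a collagen with an EMI domain, held 6 to 18 counts in each WT library. It was at 30.1, 32.3 and 24.9 CPM in the knockout with DMSO and, under sorafenib, at 29.5, 25.3 and 19.3 CPM. Its treatments overlapped, with ratios of 51.2 and 76.7.

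EMX1 (chr2:72916260-72936071, plus strand), the transcription factor among the members, was at 1.57, 1.73 and 1.461 CPM in WT with DMSO and at 1.58, 2.25 and 1.93 CPM in WT with sorafenib. The knockout libraries held 23.0, 25.3 and 27.3 CPM with DMSO and 21.1, 25.4 and 25.2 CPM with sorafenib. The ratios were 15.9 and 12.5, and the treatments overlapped in both genotypes.

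Per unit of transcript length, the members reached modest levels. In the knockout with DMSO, the order of mean TPM (± SD, n = 3) was NRCAM 16.4 ± 1.47, AQP9 15.3 ± 3.62, EMX1 13.5 ± 1.92, RAB31 10.1 ± 0.589, ALDH8A1 6.65 ± 0.607, COL26A1 5.57 ± 1.66, CYBRD1 3.97 ± 1.07, MEGF6 3.52 ± 1.15, MYRIP 1.90 ± 0.314 and NEGR1 1.45 ± 0.640. Neighbours in this order overlapped in their libraries except EMX1 with RAB31 and RAB31 with ALDH8A1. The median over the tested genes in the knockout was 11.03 TPM, and the members lay between the 19.9 percentile (MYRIP) and the 59.0 percentile (NRCAM). With sorafenib, AQP9 moved from the second to the eighth place (4.50 ± 0.538 TPM) and MEGF6 from the eighth to the fifth (6.92 ± 1.79 TPM), while NRCAM stayed first (15.9 ± 2.60 TPM). In WT with DMSO, EMX1 was highest at 0.750 ± 0.303 TPM, and its libraries overlapped those of RAB31 at 0.576 ± 0.0680 TPM.

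The response to sorafenib inside the knockout cells was tested. The members had to be expressed in the knockout under both treatments, so a gene shut off by sorafenib could not be among them, but neither the size nor the direction of a smaller response was used. Of the 10 members, 3 rose (MEGF6, NEGR1 and ALDH8A1), AQP9 fell and 6 did not pass the test, against 46.7% of all genes called (23.0% higher and 23.7% lower). The share of members called was therefore close to that of all genes. In the same 4, the sorafenib and DMSO libraries did not overlap, as in 52.9% of all genes. AQP9 fell by 1.68 ± 0.28 on the log2 scale, 3.21-fold (edgeR, adjusted p = 0.0006039). MEGF6 rose by 0.91 ± 0.17, 1.87-fold (edgeR adjusted p = 0.0009941). NEGR1 rose by 1.43 ± 0.31, 2.69-fold (edgeR adjusted p = 0.003102). ALDH8A1 rose by 0.66 ± 0.23, 1.58-fold (edgeR adjusted p = 0.03405). The ALDH8A1 call was lost with an offset for transcript length (edgeR adjusted p = 0.0857), with the replicate number as a block (0.056) and on leaving out any knockout library except sorafenib replicate 3 (up to 0.143, without sorafenib replicate 2).

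The other members gave log2 changes in the knockout of 0.34 (95% interval -0.25 to 0.94) for CYBRD1, 0.10 (-0.14 to 0.33) for RAB31, -0.01 (-0.51 to 0.49) for MYRIP, -0.08 (-0.32 to 0.17) for EMX1, -0.12 (-0.43 to 0.18) for NRCAM and -0.23 (-0.60 to 0.13) for COL26A1. These intervals take the spread of a normal distribution, which makes them somewhat narrower than the F test would. As printed, all 6 exclude a 2-fold change in either direction, but the upper end for CYBRD1 lies close to a 2-fold rise. The median log2 change over the 10 members was 0.05, against 0.01 over all genes.

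In WT cells, the response could be tested for the 8 members with more than 3 counts per group, a comparison added after the values were seen. The members were chosen for low WT levels under both treatments, so a large rise in WT could not be among them. Counts were also few, from 11 (MYRIP and CYBRD1) to 137 (EMX1) over the WT sorafenib libraries. The shares over all genes below are therefore no like background, also for the difference between the genotypes. NRCAM fell by 1.19 ± 0.24 on the log2 scale, from 1.22 to 0.530 CPM (edgeR adjusted p = 0.001777), but not with an offset for transcript length (-0.59, edgeR adjusted p = 0.565). ALDH8A1 rose by 1.45 ± 0.32, from 0.683 to 1.85 CPM (edgeR adjusted p = 0.003498), and the other 6 were not called, against 35.4% of all genes called. The libraries of NRCAM and ALDH8A1 did not overlap between the treatments, as in 50.8% of all genes. Without WT DMSO replicate 1, which had the fewest counts of COL26A1 and CYBRD1 among the WT DMSO libraries, both of these were called lower too, so that 3 members were. The difference between the genotypes in the response was called for 0 of the 8 by edgeR and by DESeq2, against 0.835% of all genes. NRCAM came nearest, with a response higher by 1.06 ± 0.28 in the knockout (edgeR unadjusted p = 0.002411, adjusted p = 0.0923), and no other member had an unadjusted p under 0.05. For ALDH8A1 the difference was -0.79 ± 0.39 (edgeR adjusted p = 0.366).

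**Figure D2:**
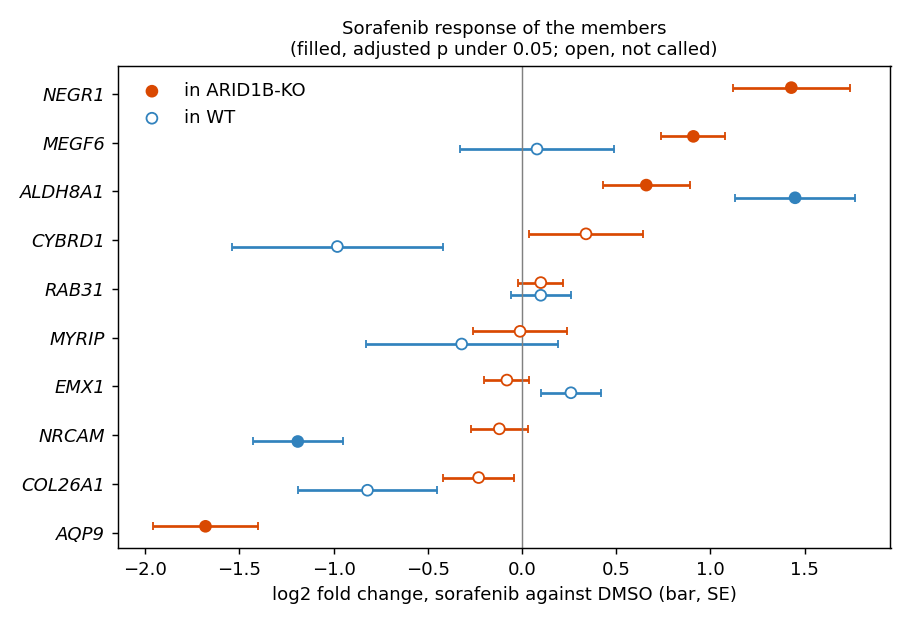
Log2 fold change of each member with sorafenib against DMSO in ARID1B-KO (orange) and in WT (blue), with bars of 1 SE, filled where called. AQP9 is the filled point at -1.68 and NEGR1 the filled point at 1.43, both in the knockout, and neither is shown for WT, where they held 2 counts and 1 count.

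Which transcripts carried the signal was examined next, because a gene's sum can hide where its RNA starts. The annotation lists 73 member transcripts in the files, and 48 held counts above 0. In the knockout libraries, AQP9 RNA was assigned wholly to its canonical transcript (100% of estimated counts), as was that of RAB31 (99.5% ± 0.541, SD, n = 6), CYBRD1 (90.8% ± 5.22), MEGF6 (84.3% ± 6.49) and ALDH8A1 (71.4% ± 4.10) for the most part. For COL26A1 the counts were divided between the canonical transcript (59.4% ± 19.5) and another whose first base lies 2 bases further on (36.9% ± 20.8), and shares that vary this much between libraries do not separate such a pair. Shares of estimated counts rest on how Salmon divides reads that fit several transcripts.

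MYRIP and NEGR1 RNA was assigned mainly to transcripts that start far inside the gene. For MYRIP, the transcript ENST00000539167.2 starts 291.1 kb inside the gene, at the internal start shown above, and took 73.5% ± 20.9 of the counts (37.5% to 98.2% over the 6 libraries). The canonical ENST00000302541.11, from the distal start, took 17.9% ± 11.8. The low value came from knockout sorafenib replicate 1, where 48.7% of counts went to ENST00000396217.7, which held no count in the other knockout libraries. The internal model has 15 exons and 672 codons of coding sequence, and the canonical one 17 exons and 859. For NEGR1, the transcript ENST00000306821.3 starts 181.6 kb inside the gene and took 89.6% ± 6.33 of the counts, against 9.76% ± 5.85 for the canonical ENST00000357731.10, whose coding sequence is longer (354 codons against 226). These NEGR1 models also differ at the 3' end, at chr1:71402944 for the shorter and chr1:71395943 for the canonical one. The shares alone cannot tell an internal start from a different 3' end. NEGR1 rests on 37 to 192 counts per knockout library.

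NRCAM and EMX1 RNA was shared out among several models. NRCAM counts were split between the full-length ENST00000351718.8 (45.3% ± 3.64 of counts), a model of 28 exons, and ENST00000522550.2 (46.7% ± 6.23), a model of 3 exons without coding sequence at the 3' end of the gene. Per length, the short model held 63.6% ± 7.45 of the NRCAM TPM and the full-length one 14.5% ± 2.26, so most of the summed TPM of NRCAM given above belongs to a transcript with no annotated protein. For EMX1, the canonical transcript took 37.5% ± 4.26 of counts, and ENST00000491023.3, without coding sequence, took 31.5% ± 6.33 of counts and 45.7% ± 7.10 of TPM. MEGF6 has a like limit on its TPM: the retained-intron model ENST00000461795.1, of 418 bases, held 0 to 22 counts per knockout library but 41.6% ± 21.0 of the MEGF6 TPM, against 35.9% ± 2.53 for the canonical transcript. The canonical transcript led in 7 members by counts and in 5 by TPM.

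Of the member transcripts, 26 passed the filter and 1 was called between sorafenib and DMSO in the knockout, against 6.29% of the 47729 transcripts tested. It was the canonical AQP9 transcript ENST00000219919.8, which fell by 1.70 ± 0.30 on the log2 scale (edgeR adjusted p = 0.0331). This call was lost with the replicate number as a block and on leaving out any one knockout library except DMSO replicate 3. In simulated transcript counts of this design, 6.1% of 2-fold and 23% of 4-fold changes were recovered, so a transcript that was not called could have changed by that much.

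**Figure D3:**
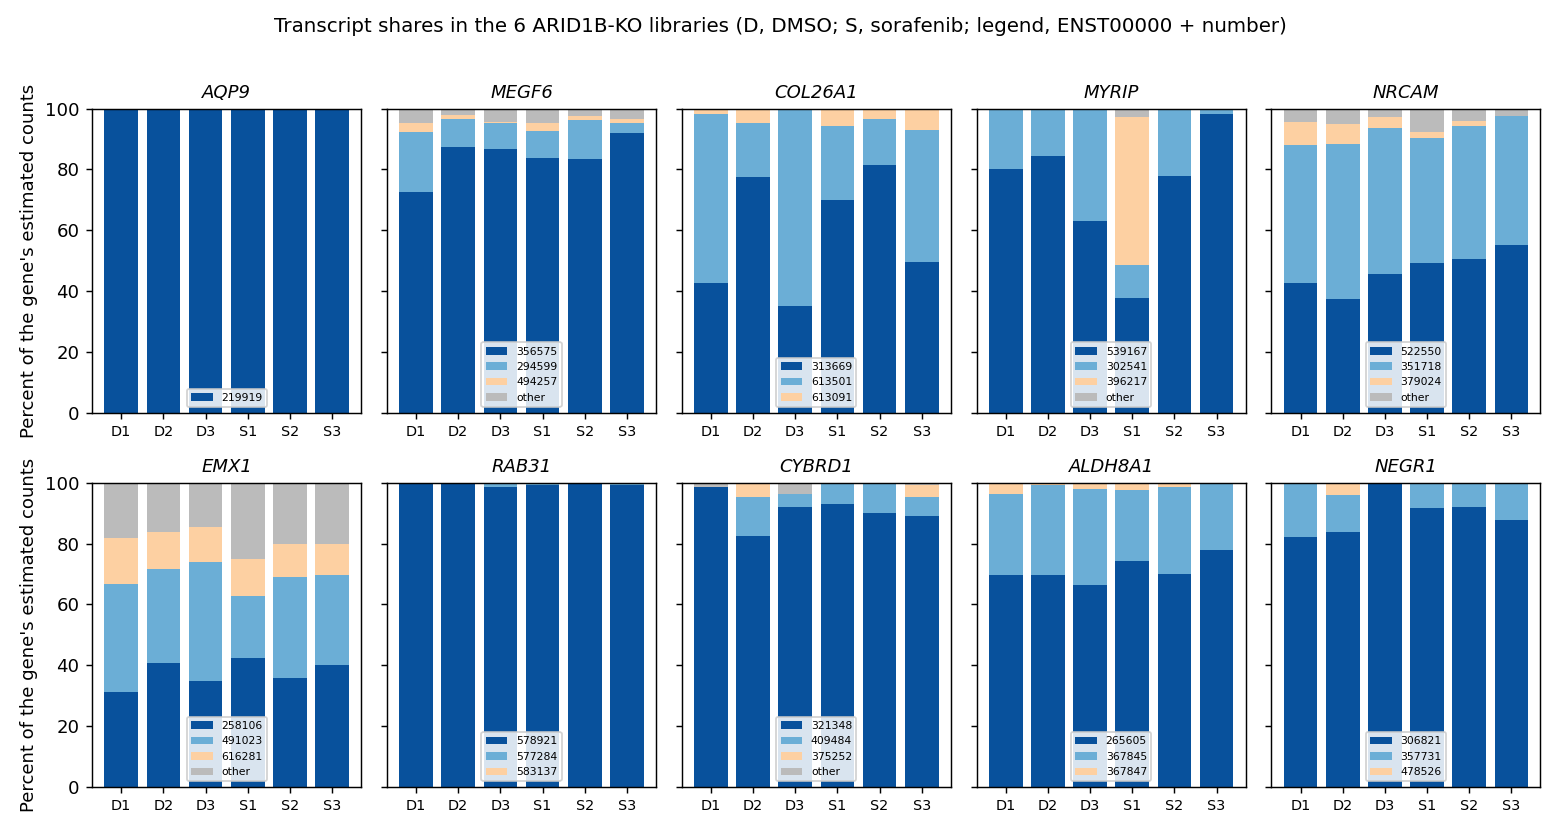
Percent of each member's estimated counts assigned to its 3 leading transcripts and to all others, as stacked bars for the 3 DMSO (D) and 3 sorafenib (S) ARID1B-KO libraries. AQP9 and RAB31 are carried by 1 transcript each, the MYRIP bar of sorafenib replicate 1 stands apart at 37.5% for the internal transcript, and NRCAM is divided between a short and a full-length transcript.

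The relatives of the members, drawn from families and pathways listed with the members left out, were called in both directions. Of 85 relatives tested, 18 were higher and 19 lower in the knockout with DMSO (43.5% called, against 27.8% of all genes), with a median log2 change of -0.01, and 0 were over 8-fold higher. With sorafenib, 19 were higher and 19 lower (44.7%, against 27.0% of all genes), and 1 was over 8-fold higher without being called, AQP6, from 0.126 to 1.64 CPM (3.67 ± 1.47, edgeR adjusted p = 0.0878). These lists were chosen for this tissue with results known, and no test of a list was made.

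Near AQP9, the aquaporins had 1 of 5 tested members higher with DMSO, AQP7, an adipose glycerol channel (0.62 ± 0.21, edgeR adjusted p = 0.04005), a call lost in DESeq2 (adjusted p = 0.0655) and under most other settings. Of the glycerol handling genes, GPD1, which links glycerol to glycolysis, rose from 21.1 to 44.9 CPM (1.09 ± 0.10), TKFC, which phosphorylates dihydroxyacetone and glyceraldehyde, rose (0.48 ± 0.08), and PNPLA2, the first lipase of fat breakdown, fell (-0.68 ± 0.13), so that 3 of 7 were higher and 1 lower. With sorafenib in the knockout, AQP9 fell, whereas 4 of 5 other aquaporins rose (against 23.0% of all genes). AQP7 rose from 2.12 to 11.01 CPM (2.37 ± 0.20), AQP3 by 1.77 ± 0.47, AQP8 by 2.36 ± 0.42 and AQP11 by 0.93 ± 0.12. The glycerol handling genes went both ways, with 4 of 7 higher and 2 lower. Those that fell, as AQP9 did, were GK, from 113.0 to 63.85 CPM (-0.82 ± 0.11), and GPD1 (-0.25 ± 0.09). AQP7 (1.65 ± 0.20) and AQP11 (1.04 ± 0.12) also rose with sorafenib in WT. The difference between AQP9 and these genes was not itself tested.

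Beside ALDH8A1, the kynurenine pathway had 4 of 9 tested members higher and 3 lower in the knockout with DMSO. AADAT, a kynurenine aminotransferase, rose by 0.69 ± 0.15 and QPRT, which makes the NAD precursor nicotinate mononucleotide, by 0.44 ± 0.09. KYNU, kynureninase, fell by 0.30 ± 0.09, a call not kept in every alternative run. Between the genotypes with sorafenib, KYNU was not called (-0.20 ± 0.09, edgeR adjusted p = 0.1092). With sorafenib in the knockout, 7 of 9 rose, against 23.0% of all genes, and the other 2 did not pass the test. Among those that rose was HAAO, an upstream dioxygenase of the route that leads to the ALDH8A1 substrate, from 17.3 to 38.8 CPM (1.17 ± 0.11). HAAO also rose in WT with sorafenib (1.28 ± 0.11). Among 14 other aldehyde dehydrogenases, 3 were higher and 2 lower in the knockout with DMSO, led by ALDH3A2, of fatty aldehydes (0.69 ± 0.10). Around CYBRD1, its paralog CYB561 rose from 5.38 to 29.5 CPM (2.46 ± 0.20), whereas SLC40A1, the iron exporter ferroportin, fell from 13.3 to 6.08 CPM (-1.13 ± 0.15), with 1 of 11 higher and 4 lower.

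Around MYRIP, 2 of 11 genes of the RAB27 granule machinery were lower with DMSO and the others did not pass the test. These were UNC13D, a priming factor, from 47.2 to 19.9 CPM (-1.24 ± 0.11), and MYO7A, a myosin that MYRIP binds, from 9.39 to 4.57 CPM (-1.03 ± 0.18). Around RAB31, 3 of 14 were higher and 1 lower, among them the RAB5-like GTPases RAB17 (0.58 ± 0.10) and RAB21 (0.40 ± 0.10). NRCAM's relative L1CAM went the other way, from 10.2 CPM in WT to 0.683 CPM in the knockout (-3.89 ± 0.37, edgeR adjusted p = 7.436e-06), as did the semaphorins SEMA3B (-0.71 ± 0.14) and SEMA3F (-0.98 ± 0.20). NRP2, a semaphorin receptor that NRCAM can bind, rose from 2.42 to 7.55 CPM (1.64 ± 0.25), a call lost with the length offset (edgeR adjusted p = 0.549). The ankyrin ANK1 was higher, from 0.0851 to 0.439 CPM (2.23 ± 0.67), and ANK2 lower (-0.31 ± 0.11). Of the 6 tested in this list, 2 were thus higher and 4 lower with DMSO. With sorafenib neither semaphorin was called (SEMA3B 0.19 ± 0.14, SEMA3F -0.50 ± 0.20). COL26A1's EMI-domain relative EMILIN1 fell from 57.0 to 2.27 CPM (-4.64 ± 0.23, edgeR adjusted p = 2.952e-08). It was the 1 gene called of 3 tested in that list. Of the MEGF relatives, MEGF9 rose (0.43 ± 0.12) and EGFL8 fell (-1.58 ± 0.46) of 4 tested, and both calls were lost on leaving out single libraries. Of the forebrain homeobox genes beside EMX1, DLX1 rose from 1.01 to 2.59 CPM (1.37 ± 0.37), 1 of 3 tested, and that call was lost without WT DMSO replicate 3 or knockout DMSO replicate 2. The 4 IgLON relatives of NEGR1 did not pass the filter.

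**Figure D4:**
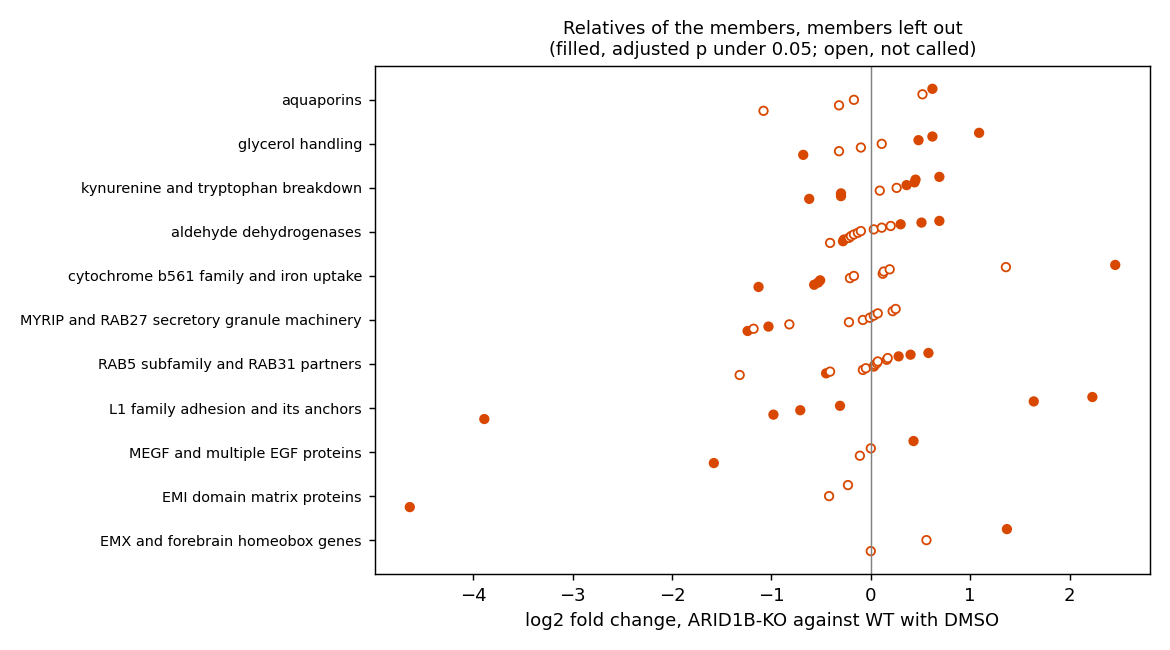
Log2 fold change in ARID1B-KO against WT with DMSO for each relative that passed the filter, by family or pathway with the members left out, filled where called. L1CAM at -3.89 and EMILIN1 at -4.64 lie furthest to the left, and CYB561 at 2.46 furthest to the right.

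Of the markers of other cell types, some were at 0 and some differed between the genotypes in the same direction as the members, and their part in the result was not tested. The shares of all genes called with DMSO were 14.3% higher and 13.5% lower. Higher in the knockout with DMSO were 2 of 3 tested endothelial markers, VWF from 0.298 to 1.28 CPM (2.08 ± 0.42) and CDH5 from 1.14 to 3.47 CPM (1.61 ± 0.33). SYP, a synaptic vesicle protein, rose from 8.25 to 32.0 CPM (edgeR adjusted p = 5.463e-05), while NES, a neural progenitor filament, fell from 52.1 to 9.98 CPM (-2.38 ± 0.15), which made 1 of 4 tested neural markers higher and 1 lower. Of the 6 leukocyte markers tested, CD68 (0.74 ± 0.17) and CORO1A (0.77 ± 0.15) were higher and LYZ lower (-0.94 ± 0.14), and of the 2 fibroblast markers ACTA2 was higher (0.58 ± 0.09) and PDGFRB lower (-2.23 ± 0.27). With sorafenib, VWF (2.00 ± 0.39), CDH5 (1.42 ± 0.31), SYP (1.78 ± 0.23) and CORO1A (from 2.12 to 6.02 CPM, edgeR adjusted p = 2.694e-05) were higher too. Under the drug, 1 neural and 1 leukocyte marker were lower, and of the 2 fibroblast markers 1 was higher and 1 lower. Of all genes, 13.2% were higher and 13.8% lower with sorafenib. Among neural markers, SNAP25, STMN2, ELAVL4 and DCX were at 0 in all 12 libraries, and the summed level of the 12, led by TUBB3, was 31.2 to 44.3 TPM in WT and 41.8 to 52.4 TPM in the knockout with DMSO. Among fibroblast markers, COL1A2, DCN, THY1, POSTN, TCF21 and DES were at 0 in all libraries, and ACTA2 led the sum of 12, at 24.3 to 29.5 TPM in WT and 33.4 to 34.7 TPM in the knockout with DMSO. Endothelial KDR, ERG and EMCN and leukocyte PTPRC and TYROBP were at 0 throughout. The 10 endothelial markers summed to 0.558 to 1.01 TPM in WT and 0.604 to 2.75 TPM in the knockout with DMSO. Nearly all of the leukocyte sum was LYZ, at 4676 TPM in WT and 2512 TPM in the knockout with DMSO.

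The members lie on 7 chromosomes, and the closest pair, COL26A1 and NRCAM, is 6.6 Mb apart. Within 100 kb of 8 members, 17 other genes were tested, a comparison added after the values were seen. With DMSO, 9 of the 17 were higher and 2 lower in the knockout, against 14.3% and 13.5% of all genes, with a median log2 change of 0.30 against 0.01. Most changes were small: TPRG1L, near MEGF6, rose by 0.65 ± 0.08 and SPR, near EMX1, by 0.58 ± 0.06. The exception was PRDM16, a zinc-finger transcriptional regulator 49330 bp from MEGF6, which rose from 0.211 to 2.53 CPM (3.57 ± 0.49, edgeR adjusted p = 0.0001807) and by 2.25 ± 0.44 with sorafenib. PRDM16 is itself among the 20 genes within the CPM limits above. With sorafenib, 6 of 17 neighbours were higher and the others did not pass the test, against 13.2% of all genes higher, and with the length offset 2 were higher.

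Other genes met the same CPM limits or had a step between the genotypes. Of the non-members within the CPM limits, those with the highest mean TPM in the knockout were ENSG00000257411 (34.2 TPM, not detected in WT), CSTA, a cysteine protease inhibitor (12.5 against 0.881 TPM in WT), RNASE2, an eosinophil ribonuclease (12.4 against 0.820 TPM), SLC22A18AS (6.63 against 1.10 TPM) and SLC25A21, a mitochondrial carrier (5.44 against 0.565 TPM). The profile of the members over the 12 libraries, taken as the mean of their standardized log2 CPM, was most like those of PDXK (Pearson r = 0.9945), COL2A1 (0.9933), EDNRB (0.991), TWIST2 (0.9908) and ZBTB7C (0.9901), and 61 genes exceeded 0.95. The libraries fall into 2 genotypes, so these values mainly record the step between them. The sizes of that step differed: PDXK was at 81.2 CPM in WT and 131.7 CPM in the knockout, COL2A1 at 18.7 and 198.1 CPM, and TWIST2 at 0 and 4.29 CPM.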

How the data were processed

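Each library came as 1 table of Salmon output deposited by the authors, with an estimated count and a TPM value for each of 177456 transcripts, per the file headers. The submitters' processing notes name Salmon, without a version, and DESeq2 1.46.0, and GRCh38. Transcripts were matched to GENCODE release 44 without version (93.28% matched, and the rest held 2.87 to 3.2% of counts), and the deposited estimated counts were summed per gene and rounded. The deposited TPM values, scaled to a fixed total per library by the authors, were summed per gene and used only to compare levels between genes and transcripts.

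Libraries were grouped by title. All 12 entered a single edgeR 4.0.16 fit (R 4.3.3) with 4 group means, TMM, filterByExpr and the robust quasi-likelihood F test. Benjamini-Hochberg adjustment ran over 12821 genes, with calls at an adjusted p under 0.05. The biological coefficient of variation was 0.152. Each SE is the size of the log2 change over the root of its F statistic. Transcripts were fitted likewise. Where WT held 0 counts, ratios use a floor of 3 counts over the group, and with 1 to 3 counts an exact 95% interval. Both cover counting error only, since PCR copies were not separated. P-values measure the spread between these libraries, and whether they came from separate cultures is stated only as biological replication.

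The members and lists were chosen with earlier results of these data known. Named genes were ARID1B, the members, up to 4 called relatives per list with the smallest adjusted p with DMSO, and the 5 non-members most alike and the 5 with the highest knockout TPM within the CPM limits. AQP3, AQP6, AQP8, AQP11, GK, HAAO, ANK1, ANK2, TPRG1L, SPR, PRDM16 and the marker genes were named after their values were seen. On simulated counts of 12477 genes for sorafenib against DMSO in the knockout, 84% of 2-fold and 98% of 4-fold changes were recovered, with 6.19% of the calls false. Alternatives were DESeq2 size factors, the DESeq2 1.42.0 Wald test, no filter, a length offset, only the groups compared, a replicate block, each library left out, stricter CPM limits and TPM.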

Additional observations from a re-analysis of the deposited data

How the results depend on the processing

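In ARID1B-KO, the falls of AQP9 (log2 change -1.88 to -1.43 with single libraries left out) and the rises of MEGF6 (0.84 to 0.99) and NEGR1 (1.20 to 1.60) kept direction and call under each alternative run. Leaving out single libraries gave 2 to 3 members higher and 1 lower in the knockout, and 1 higher and 1 to 3 lower in WT. The replicate numbers did not pair the libraries: deviations of same-numbered libraries correlated at -0.163 to 0.184, with 1 of 18 pairs over 0.1 and 8 matching best with their own number. The replicate block gave 2 members higher and 1 lower in the knockout, ALDH8A1 losing its call (0.66, edgeR adjusted p = 0.056), with 2881 genes called higher against 2947 without the block, and 0 member transcripts called. The offset for transcript length gave 1962 genes higher in the knockout, 10 relatives lower with DMSO, 9 relatives higher and 8 lower with sorafenib, and among the neighbours 0 lower with DMSO and 2 higher with sorafenib. It also turned COL26A1 (0.06), NRCAM (0.08) and MYRIP (0.05) positive in the knockout, and in WT MYRIP (0.58) positive and EMX1 (-0.12) negative. MYRIP in the knockout was 0.00 with DESeq2 size factors and with DESeq2, and -0.14 to 0.12 with single libraries left out (0.09 without DMSO replicate 3 and 0.12 without sorafenib replicate 1), and EMX1 -0.12 to 0.02 (0.02 without sorafenib replicate 1). MEGF6 in WT ranged from -0.34 to 0.55, being -0.34 without DMSO replicate 1 and -0.18 without sorafenib replicate 3, and MYRIP from -1.27 to 0.07, the latter without sorafenib replicate 1. None of these values of COL26A1, NRCAM, MYRIP, EMX1 or MEGF6 passed the test, and the cause was not tested. Fitting only the groups compared left 1 neighbour lower with DMSO. With single libraries left out, 11 to 16 relatives were higher and 12 to 19 lower with DMSO (fewest higher without WT DMSO replicate 3, and 12 lower without WT DMSO replicate 2, WT DMSO replicate 3 or knockout DMSO replicate 2), and 13 to 18 were higher and 11 to 18 lower with sorafenib (11 lower without WT sorafenib replicate 3 or knockout sorafenib replicate 2). Neighbours ranged from 7 to 9 higher and 1 to 2 lower with DMSO and 5 to 6 higher with sorafenib, and member transcripts called lower from 0 to 1. Limits of 0.5 and 5 CPM left 2 genes, AQP9 and MYRIP, and limits of 1 and 2 in deposited TPM left 15 genes with 7 members. Few WT reads limit the ratios of AQP9, NEGR1, MEGF6, MYRIP, COL26A1 and CYBRD1, with at most 18 counts in any WT library, and WT responses of AQP9 and NEGR1 could not be measured.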
